A study of Mus musculus with 4 samples.

Results

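The genes described here encode secreted and membrane-bound inhibitors of serine proteases. The rule took every gene whose symbol starts with Wfdc, Spink or Spint, together with Eppin and Slpi. These families were chosen with earlier results of these data known. The rule found 38 genes among the 22073 genes of the deposited table, 19 of the whey acidic protein (WAP) group (18 Wfdc genes and Slpi), 13 Kazal-type (Spink) genes, 5 Kunitz-type (Spint) genes, and Eppin, which carries a WAP and a Kunitz domain. Poly(A) RNA was sequenced from 4 right testes, each from a sexually mature male of KM, the outbred Kunming mouse. Of these males 2 had lost the left testis to surgery before puberty (hemicastrated), and the other 2 underwent sham surgery then (control; the labels call them normal mice). The comparison asks how the testis that is left behind differs in expression from a testis that kept its partner. No transgene or drug is named in the labels, the sources used here give no age in days, and the protocol counts 3 mice in each group where 2 libraries of each are listed.

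WAP, Kazal and Kunitz domains are small folds held together by disulfide bonds, and each presents an exposed loop that can sit in the active site of a serine protease and block it. In the male tract such inhibitors are made by germ cells, where they hold the acrosomal protease acrosin in check, by Sertoli cells, and in large amounts by the epithelium of the epididymis, whose secretions coat maturing sperm. Many are also antibacterial. In the mouse most WAP genes of the tract lie side by side on chromosome 2, and many Kazal genes lie together on chromosome 18.

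Values are FPKM, fragments scaled by transcript length and by the mapped fragments of the library, so levels can be compared between genes per length. No read counts come with them, and only the gap between a group's 2 libraries shows how precise a value is. Summed FPKM over all genes was between 343105 and 353135 in the 4 libraries. All spermatid (7), spermatocyte (5) and Leydig (5) markers examined were above 1 FPKM on average, with Prm1 at 5732 to 6458 FPKM, so the labelled tissue was matched by its defining genes. Of 7 Sertoli markers 5 reached that level, and Sox9 and Amh lay between 0.402 and 1.01 FPKM. RNA of genes known from other tissues was also present and differed between the groups. The 15 epididymis genes examined summed to 669 and 932 FPKM in the controls and to 2.44 and 3.69 FPKM in the hemicastrated libraries. The test covered the 11343 genes that averaged 1 FPKM or more across the libraries, and a gene was called at an adjusted p under 0.05 in limma. A log2 fold change is the hemicastrated mean minus the control mean of log2(FPKM + 1), a scale that understates changes of low genes.

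A large share of the inhibitor genes expressed in the control testes was far lower or listed at 0 after hemicastration, while others, among them the abundant Spink2, Wfdc15a and Spint2, were not called. Of the 38 genes, 24 reached the filter, and of these 13 fell, 0 rose and 11 were not called, whereas 1.19% of all tested genes fell and 0.106% rose (limma, Benjamini-Hochberg adjustment). This contrast is a description, since the families were chosen with earlier results of these data known. The fallen genes were 7 WAP genes (Wfdc15b, Wfdc16, Wfdc13, Wfdc9, Wfdc6b, Wfdc8 and Wfdc10), 5 Kazal genes (Spink8, Spink10, Spink14, Spinkl and Spink5) and the Kunitz gene Spint3. Among the 24, 9 passed the filter only through their control values, with a mean under 1 FPKM after hemicastration, so the count of those tested is partly set by the filter. Of the other 15, which had a mean of at least 1 FPKM in the hemicastrated libraries, 4 fell (Spink8, Wfdc9, Wfdc6b and Wfdc10). With no filter, 35 of the 38 genes were tested and 12 fell, against 0.629% of the 18587 genes then tested. None rose there either, beside 0.0161% of those genes. In the higher direction 1 of the 24 had an unadjusted p under 0.05 in limma, beside 452 of all 11343 tested genes. With no filter 3 of the 35 had one, beside 607 of the 18587 genes. In the lower direction 16 of the 24 had one, and 17 of the 35 with no filter, beside 739 and 1287 of all genes. Listed at 0 in both hemicastrated libraries but above 0 in both controls were 4 of the 24 (Spink10, Wfdc16, Spink14 and Spink5), beside 0.168% of all tested genes. In bulk tissue, fewer cells of a type and less RNA per cell cannot be told apart.

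**Figure D1:**
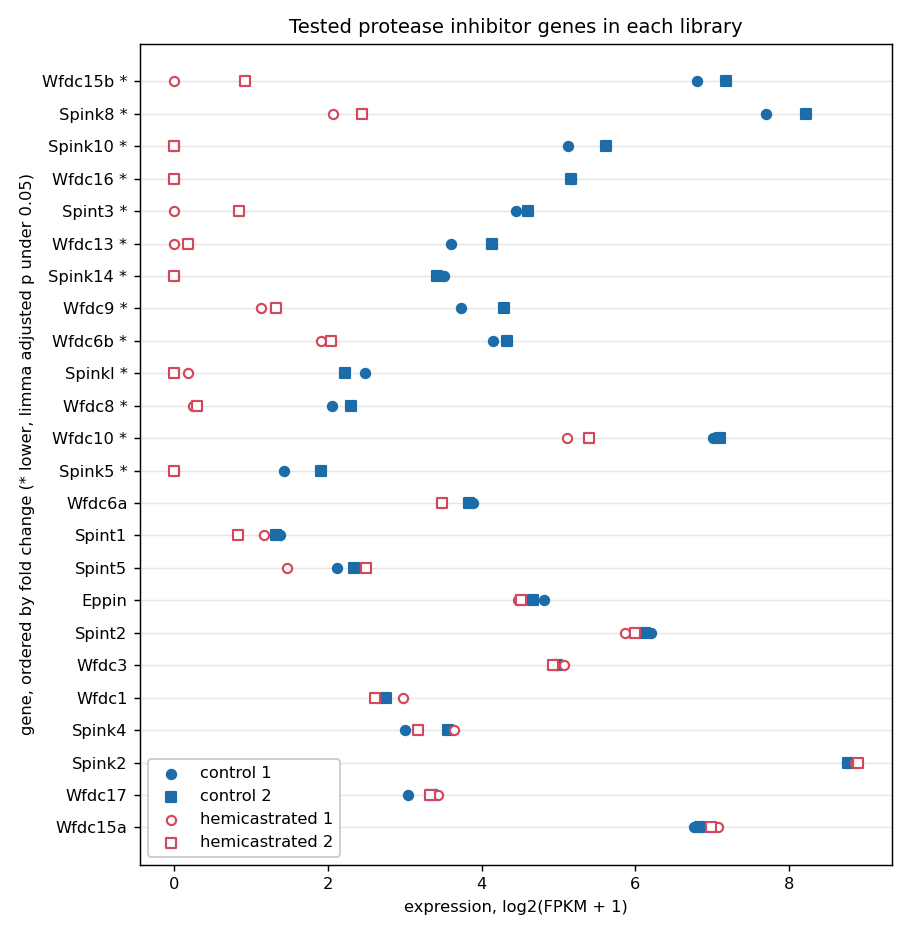
Expression of the 24 tested inhibitor genes in each library on the log2(FPKM + 1) scale, ordered by log2 fold change, with 1 point per library (filled, control; open, hemicastrated; circles, replicate 1; squares, replicate 2) and an asterisk for genes that fell. For the genes with an asterisk both open symbols lie left of both filled ones, and for Spink10, Wfdc16, Spink14 and Spink5 the open symbols coincide at 0.

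The filter fixed the direction of the 9 genes that passed it only through their controls, so nothing is read from values over all 24. As a description, the groups did not overlap in 17 of the 24 with lower and in 2 with higher hemicastrated values, where 24.8% and 16.3% of all tested genes did so. Of the 15 genes with a hemicastrated mean of at least 1 FPKM, 8 were lower and 2 higher without overlap, beside 23.3% and 16.8% of all 11029 tested genes with such a mean. Their median log2 fold change was -0.25, beside -0.02, and 9 of the 15 were negative, a share of 60%, near the 55.3% of those genes. The 4 of them that fell compare with 0.49% of those genes. Together the 13 fallen genes summed to 594 and 760 FPKM after sham surgery and to 40.9 and 52.4 FPKM in the hemicastrated libraries. Wfdc10 made up most of what was left, and without it the sums were 466 and 623 FPKM against 7.43 and 11.1 FPKM. The 11 tested genes that were not called summed to 708 and 719 FPKM after sham surgery and to 751 and 754 FPKM after hemicastration.

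**Figure D2:**
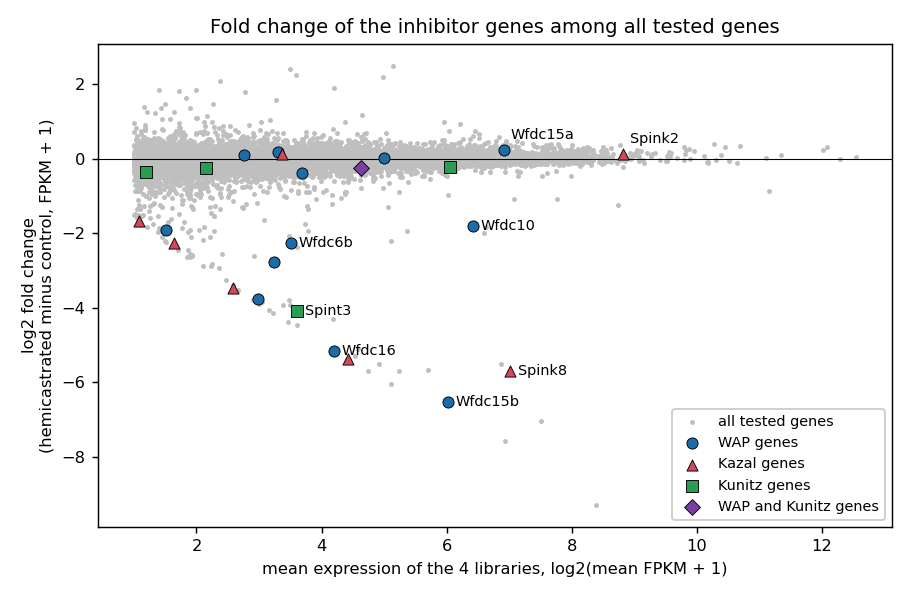
Log2 fold change (hemicastrated minus control) against mean expression of the 4 libraries, both from FPKM + 1, for all 11343 tested genes (grey) and the 24 tested inhibitor genes by family. Spink2 and Wfdc15a, the most abundant inhibitors that were not called, sit near 0, and the fallen genes follow the lower edge of the cloud, where genes near 0 FPKM in the hemicastrated libraries lie, except Wfdc10, Wfdc6b, Wfdc9 and Spink8, which kept a measurable level. Genes listed at 0 in both hemicastrated libraries are drawn at a fold change that the pseudocount sets.

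Spink8, a Kazal gene on chromosome 9 (ENSMUSG00000050074, 109812280 to 109826633, GRCm38), was the most abundant gene that fell. It stood at 206 and 299 FPKM after sham surgery and at 3.19 and 4.45 FPKM in the hemicastrated libraries, 1.51% of the control mean. Each hemicastrated value was between 1.07% and 2.16% of a control value, so the groups lay far apart (log2 fold change -5.70, SE 0.20, limma adjusted p = 6.45e-05). Spink10 (chromosome 18, 62548911 to 62668070) was at 33.9 and 48.3 FPKM after sham surgery and at 0, as listed, in both hemicastrated testes (limma adjusted p = 6.45e-05). Spink14 (chromosome 18, 44027869 to 44032417) was at 10.4 and 9.69 FPKM and was likewise listed at 0 in both (limma adjusted p = 7.32e-05). The control values of these Kazal genes differed by less than 1.5-fold within the group, a small spread beside the gap to the hemicastrated libraries.

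The lower-level Kazal genes that fell were Spinkl and Spink5. Spinkl was at 4.604 and 3.67 FPKM in the controls, at 0.136 FPKM in hemicastrated 1 and listed at 0 in hemicastrated 2 (limma adjusted p = 0.00145). Spink5 encodes an inhibitor of kallikreins best known from skin, built of many Kazal domains. It was at 1.68 and 2.76 FPKM after sham surgery and at 0, as listed, in both hemicastrated testes (limma adjusted p = 0.0136). It missed the threshold when control 2 was left out (limma adjusted p = 0.0563), under quantile normalization (0.0604) and when no filter was set (0.0653). The other 12 fallen genes passed the threshold in each alternative in which they were tested. With 1 library left out, the spread comes from the other group alone, and the single library is assumed to vary as much.

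The other tested Kazal genes, Spink2 and Spink4, were not called. Spink2, the acrosin inhibitor of spermatids and the most abundant of all 38 genes, was at 431 and 437 FPKM after sham surgery and at 465 and 477 FPKM after hemicastration. The groups did not overlap, but the difference of 0.12 on the log2 scale (SE 0.07) was not called (limma adjusted p = 0.653). Its target Acr, the protease acrosin of the acrosome, was at 92.9 and 79.8 FPKM against 85.1 and 91.1 FPKM. Spink4, known from goblet cells of the gut, was at 7.04 and 10.8 FPKM after sham surgery and at 11.4 and 8.01 FPKM in the hemicastrated libraries, with the groups overlapping. Of the 2 most abundant Kazal genes of the control testis, Spink8 thus fell and Spink2 was not called.

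Among the WAP genes, Wfdc15b and Wfdc15a, neighbours on chromosome 2 with 14323 bases between them, differed from each other in this comparison. Wfdc15b (164214454 to 164221660) was at 111 and 144 FPKM after sham surgery, at 0 in hemicastrated 1 and at 0.890 FPKM in hemicastrated 2 (log2 fold change -6.53, SE 0.30, limma adjusted p = 0.00017). Wfdc15a (164198863 to 164200130) was at 108 and 114 FPKM after sham surgery and at 134 and 125 FPKM after hemicastration. Its groups did not overlap, with higher hemicastrated values, but the log2 fold change of 0.22 (SE 0.08) was not called (limma adjusted p = 0.428). The ratio of Wfdc15a to Wfdc15b was 0.978 and 0.795 in control testes and 141 in hemicastrated 2.

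The promoters of this pair, of Spint3 and of Eppin are printed to show genes of the cluster that fell (Wfdc15b, Spint3) beside ones that were not called (Wfdc15a, Eppin). Spint3 and Eppin are not next to each other, as Wfdc6a lies between them. Each is the 250 bases before the RefSeq transcription start (build GRCm38.p6), 5′ to 3′ on the strand of the gene, which is the minus strand for all 4. Capitals mark TATAAA, the core promoter element, and AGAACA or its reverse complement, the half-site of the androgen receptor and related steroid receptors. Wfdc15b and Spint3 are the only 2 of the 7 fallen genes with a window that hold AGAACA. The printed windows therefore do not stand for the other fallen genes. The windows are chr2:164221664-164221913 for Wfdc15b, chr2:164200118-164200367 for Wfdc15a, chr2:164573457-164573706 for Spint3 and chr2:164593572-164593821 for Eppin. The last 3 bases of the Spint3 window, 13 of that of Wfdc15a and 23 of that of Eppin lie in exons of GENCODE.
Wfdc15b: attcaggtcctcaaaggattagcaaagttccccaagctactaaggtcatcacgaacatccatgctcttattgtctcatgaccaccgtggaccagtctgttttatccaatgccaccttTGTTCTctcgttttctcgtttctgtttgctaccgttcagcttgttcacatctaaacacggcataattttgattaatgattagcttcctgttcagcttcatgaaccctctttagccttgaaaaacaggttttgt
Wfdc15a: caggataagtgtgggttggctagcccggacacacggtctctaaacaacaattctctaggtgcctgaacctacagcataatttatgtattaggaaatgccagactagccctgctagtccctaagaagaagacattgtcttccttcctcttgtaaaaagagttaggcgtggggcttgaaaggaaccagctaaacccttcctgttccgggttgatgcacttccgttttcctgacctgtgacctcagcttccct
Spint3: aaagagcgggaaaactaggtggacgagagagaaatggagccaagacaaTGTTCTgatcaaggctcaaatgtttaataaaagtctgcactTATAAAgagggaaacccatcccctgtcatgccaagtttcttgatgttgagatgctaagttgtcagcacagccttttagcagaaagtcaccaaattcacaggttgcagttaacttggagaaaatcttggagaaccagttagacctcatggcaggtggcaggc
Eppin: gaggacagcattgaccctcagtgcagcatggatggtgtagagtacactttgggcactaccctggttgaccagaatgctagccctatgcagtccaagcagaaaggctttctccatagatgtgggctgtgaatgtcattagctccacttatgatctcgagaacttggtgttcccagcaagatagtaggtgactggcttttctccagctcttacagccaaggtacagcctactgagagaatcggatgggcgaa

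Promoter windows were available for 22 of the 38 genes, 7 of them fallen and 9 tested without a call. No window was used for Spink8, Spink10, Spink14, Spinkl, Spink5 or Wfdc13 among the fallen genes. With both strands searched, AGAACA was found in 2 of the 7 fallen genes (Wfdc15b, 133 to 128 bases before the start, and Spint3, 202 to 197 bases before it) and in 0 of the 9 genes not called. With the untested Wfdc11 it was in 3 of the 22 genes, and 16.1% of all 32851 windows of this length held it. TATAAA was found in 2 of the 7 (Spint3, 161 to 156 bases before the start, and Wfdc8) and in 0 of the 9. In the Wfdc8 window that held it, 247 of the 250 bases lie in exons. A gene counts if any of its windows matched (27 windows for the 22 genes), while the shares of all windows are per window. With the untested Wfdc18 it was in 3 of the 22 genes, beside 12.4% of all windows. The complete androgen response element (AGAACA, then 3 bases of any kind, then TGTTCT), which contains the half-site, was in none of the 22 genes' windows and in 0.00913% of all windows. The cyclic AMP response element TGACGTCA was in none of the 22 and in 1.55% of all windows. TGANTCA, searched with any base at N, is only a loose form of the AP-1 motif. It was in 2 of the 22 (Spint4 and Wfdc11, neither of them tested) and in 6.75% of all windows. These matches describe letters in the windows only.

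Wfdc10 differed from the other fallen genes in how much remained. This WAP gene (chromosome 2, 164656046 to 164657368) was at 128 and 137 FPKM after sham surgery and at 33.5 and 41.3 FPKM in the hemicastrated libraries, 28.3% of the control mean (log2 fold change -1.80, SE 0.12, limma adjusted p = 0.000904). Wfdc9, on the opposite strand with 538 bases of gene overlap and none of exon overlap, was at 12.3 and 18.6 FPKM after sham surgery and at 1.18 and 1.51 FPKM after hemicastration (8.71% of the control mean, limma adjusted p = 0.00158). The ratio of Wfdc10 to Wfdc9 was 10.4 and 7.32 in control testes and 28.3 and 27.3 in the hemicastrated libraries, without overlap. The difference in this ratio between the groups was not tested.

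Wfdc6b and Wfdc8 form another head-to-head pair of the cluster, and both fell. Wfdc6b (164613522 to 164618212) was at 16.7 and 19.2 FPKM after sham surgery and at 2.74 and 3.13 FPKM after hemicastration, 16.4% of the control mean (log2 fold change -2.27, SE 0.13, limma adjusted p = 0.000472). Wfdc8 (164596458 to 164613626) was at 3.15 and 3.91 FPKM against 0.181 and 0.225 FPKM, 5.76% of the control mean (log2 fold change -1.91, SE 0.15, limma adjusted p = 0.0023). The ratio of Wfdc6b to Wfdc8 was 5.31 and 4.89 in control testes and 15.1 and 13.9 in the hemicastrated libraries, a difference that was not tested. The exons of this pair overlap by 105 bases on opposite strands, and without a strand-marking step in the protocol, reads there cannot be told apart. Wfdc6b also shares 40.9% of its 50-base words with Wfdc6a, which can move reads between these copies and makes both values uncertain.

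Of the WAP genes at moderate control levels, Wfdc16 and Wfdc13 were the ones most completely lost. Wfdc16 (164634707 to 164638796) was at 34.8 and 35.0 FPKM in the controls, the closest agreement of a fallen gene, and listed at 0 in both hemicastrated libraries (limma adjusted p = 1.23e-05). Wfdc13 (164685107 to 164687706) was at 11.2 and 16.5 FPKM after sham surgery, at 0 in hemicastrated 1 and at 0.128 FPKM in hemicastrated 2 (log2 fold change -3.78, SE 0.20, limma adjusted p = 0.000328). An exact 0 in such a table can be a failed estimate and is given as listed.

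WAP genes with no call were Wfdc15a, Wfdc3, Wfdc6a, Wfdc1 and Wfdc17. Wfdc3, at the far end of the cluster, was at 30.7 and 30.5 FPKM after sham surgery and at 32.6 and 29.5 FPKM after hemicastration (log2 fold change 0.02, SE 0.10). Wfdc6a was at 13.8 and 13.3 FPKM against 10.1 and 10.2 FPKM, with no overlap but no call (log2 fold change -0.38, SE 0.10, limma adjusted p = 0.243). Wfdc1, a growth-inhibitory protein first described in prostate stroma, was at 5.29 and 5.75 FPKM against 6.88 and 5.13 FPKM. Wfdc17, expressed by activated macrophages, was at 7.24 and 9.25 FPKM against 9.74 and 9.06 FPKM. The groups overlapped for Wfdc3, Wfdc1 and Wfdc17.

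Eppin, a sperm-surface protein made by Sertoli cells and epididymal epithelium that binds semenogelin and has antibacterial activity, was not called. It was at 27.2 and 24.5 FPKM after sham surgery and at 21.3 and 21.8 FPKM in the hemicastrated libraries (log2 fold change -0.25, SE 0.10, limma adjusted p = 0.46), with both hemicastrated values lower. Between Eppin and the gene Wfdc8, which fell, lie 2863 bases, and between Eppin and Wfdc6a 2895 bases. The ratio of Eppin to Wfdc6a stayed between 1.84 and 2.13 in the 4 libraries.

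Of the 4 tested Kunitz genes, 1 fell. Spint1 and Spint2 encode membrane-anchored inhibitors of the proteases matriptase, prostasin and hepatocyte growth factor activator. Spint2 was at 72.6 and 69.0 FPKM after sham surgery and at 57.3 and 62.7 FPKM after hemicastration (log2 fold change -0.24, SE 0.09, limma adjusted p = 0.426), and Spint1 was at 1.59 and 1.504 FPKM against 1.24 and 0.784 FPKM (limma adjusted p = 0.547). Both had lower hemicastrated values without overlap and neither was called. Spint3, a small gene of the chromosome 2 cluster (164569695 to 164573459), was at 20.7 and 23.4 FPKM after sham surgery, at 0 in hemicastrated 1 and at 0.797 FPKM in hemicastrated 2 (log2 fold change -4.10, SE 0.27, limma adjusted p = 0.000943). Spint5, of the same cluster, was at 3.34 and 4.07 FPKM against 1.76 and 4.61 FPKM, so that the hemicastrated libraries lay on either side of both controls.

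The other 14 genes were under the filter, and no library exceeded 2.42 FPKM for any of them. Spink6, Spink7 and Wfdc18 were listed at 0 in all 4 libraries. Slpi, the secretory leukocyte protease inhibitor that blocks neutrophil elastase, was at 0.653 and 2.42 FPKM after sham surgery and at 0, as listed, in both hemicastrated testes. Wfdc11 was at 0.197 and 1.30 FPKM and Spink11 at 0.148 and 0.859 FPKM in the controls, and both were listed at 0 in both hemicastrated libraries, as was Spink13 (0.0766 and 0.371 FPKM in the controls). Wfdc2, the gene of human epididymis protein HE4, was at 0.591 and 0.291 FPKM after sham surgery and at 0.186 and 0.173 FPKM after hemicastration. Wfdc21 ran the other way, listed at 0 in control 1, at 0.515 FPKM in control 2, and at 2.08 and 1.30 FPKM in the hemicastrated libraries. At such low values no direction is drawn.

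On chromosome 2 most of the fallen genes were next to each other. The cluster holds 19 of the 38 genes in 570 kilobases (164176327 to 164745931), of which 13 were tested and 8 fell. Of all tested genes, 1.19% fell. Wfdc15b, Spint3, Wfdc16, Wfdc13 and Wfdc8 passed the filter only through their controls, so the filter fixed their direction and part of these counts. Wfdc8, Wfdc6b, Wfdc16, Wfdc9, Wfdc10, Wfdc11 and Wfdc13 follow each other, and of these 7 genes 6 fell and Wfdc11 was under the filter. On one side this run was flanked by Eppin and Wfdc6a and on the other by Spint4, which was under the filter, and by Spint5 and Wfdc3. Of these flanking genes, the 4 that were tested were not called. Fallen genes outside the run were Spint3 and Wfdc15b. Of 14 other genes inside the cluster's bounds, 6 were tested and none was called, among them the seminal vesicle gene Svs5 (1.51 and 1.93 FPKM against 3.26 and 2.90 FPKM) and Trp53tg5 (64.5 and 70.1 against 60.4 and 72.2 FPKM), both named after their values were seen.

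**Figure D3:**
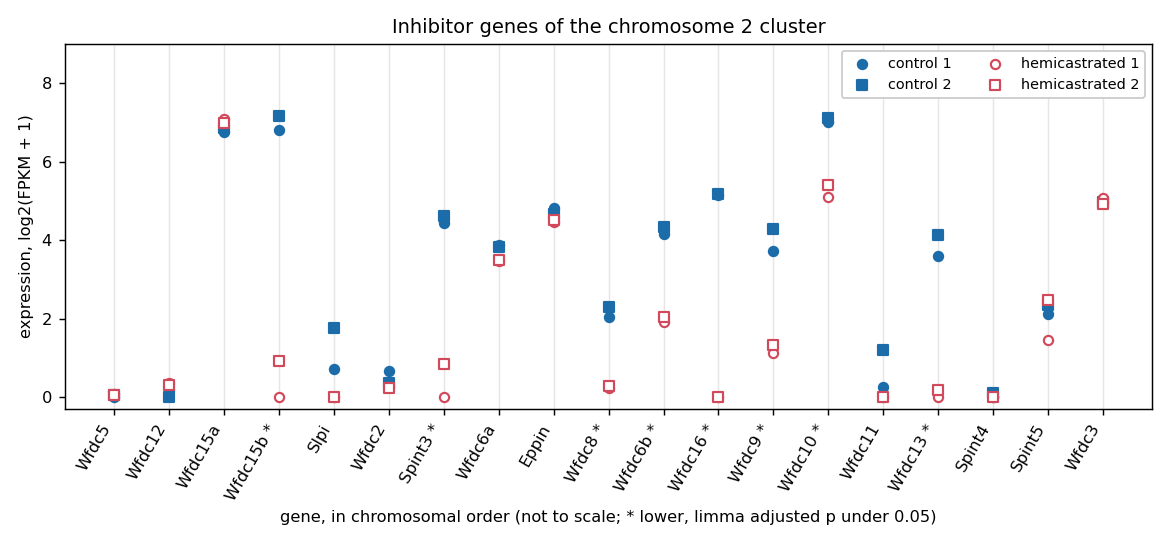
Expression on the log2(FPKM + 1) scale of the 19 inhibitor genes of the chromosome 2 cluster in chromosomal order, with 1 point per library (filled, control; open, hemicastrated; circles, replicate 1; squares, replicate 2) and an asterisk for genes that fell. From Wfdc8 to Wfdc13 the open symbols lie below the filled ones at each gene, while they lie slightly below them at Eppin, slightly above them at Wfdc15a, and among them at Wfdc3.

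The Kazal genes of chromosome 18 lie in 2 groups. The first, from 43728082 to 44196177, holds 7 of them, of which 3 were tested and all 3 fell (Spink14, Spinkl and Spink5). The second, from 62548911 to 62741387, holds Spink10, Spink7 and Spink13, of which Spink10 was tested and fell. Spink14, Spinkl, Spink5 and Spink10 all passed the filter only through their controls, so the filter fixed their direction. Of all tested genes, 1.19% fell. Of 3 other genes inside the first group, 1 was tested, Gm10267, named after its values were seen. It was at 8.10 and 3.04 FPKM after sham surgery and at 0, as listed, in both hemicastrated testes (limma adjusted p = 0.0269). Gm10267 too passed the filter only through its controls, which fixed its direction. The Kazal genes that were not called, Spink2 and Spink4, lie alone on chromosomes 5 and 4. Of the other Kazal genes of chromosome 18, Spink6 and Spink7 were listed at 0 in all 4 libraries, and Spink12 was at 0.145 FPKM in control 1 and listed at 0 in the rest.

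Libraries of 1 group also differed in the fallen genes. In 11 of the 13, control 2 was higher than control 1, with a ratio between 0.797 and 1.64 and a median of 1.24, while the median ratio over all tested genes was 0.967. The exceptions were Spink14 and Spinkl. Among all 135 genes that fell, 94 were higher in control 2. In the hemicastrated libraries 8 of the 13 were higher in hemicastrated 2, Spinkl was higher in hemicastrated 1, and 4 were listed at 0 in both. Among all 135 genes that fell, 59 were higher in hemicastrated 2.

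Markers of other tissues of the male tract, and of smooth muscle, in the same libraries are given beside these results. Of 15 epididymis genes, 5 were tested and 4 fell, beside 1.19% of all tested genes. Crisp1, Adam7 and Rnase9 passed the filter only through their controls, so the filter fixed their direction. The list summed to 669 and 932 FPKM after sham surgery and to 2.44 and 3.69 FPKM in the hemicastrated libraries. Most of the sum was Crisp1, a secretory protein of the epididymis, at 545 and 786 FPKM against 0.0453 and 0.0391 FPKM, and Ces5a and Adam7 also fell. The epididymal lipocalins Lcn5, Lcn6, Lcn8 and Lcn10 were listed at 0 in all 4 libraries. The summed list was higher in control 2 than in control 1, mostly through Crisp1, although Rnase10 and Cst11 were lower there. Its sum was also higher in hemicastrated 2 than in hemicastrated 1, mainly through Ces5a (0.612 and 1.44 FPKM), while Crisp1 ran the other way. Seminal vesicle and prostate genes (11) summed to 2.69 and 3.40 FPKM after sham surgery and to 4.2 and 3.72 FPKM after hemicastration, with Pbsn, Sbp, Msmb and Sva listed at 0 in all libraries. Of 6 smooth muscle genes 5 fell, beside the same share of all tested genes, and Cnn1 among them passed the filter only through its controls. The list summed to 97.2 and 76.7 FPKM against 30.6 and 27.7 FPKM. This sum was lower in control 2 than in control 1. With 2 libraries in each group, no source of RNA is read from these orders. The part of the other tissues or of smooth muscle in the fall of the inhibitor genes was not tested. Wfdc10, at 33.5 and 41.3 FPKM in the hemicastrated libraries, was above the sum of all 15 epididymis genes there. The tissue that its RNA came from was not tested.

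Proteases and partners of these inhibitors were examined as a list of 43 genes, of which 8 were tested, 1 fell and 0 rose (median log2 fold change -0.17; 1.19% of all tested genes fell). The gene that fell was Ltf, which encodes lactoferrin, an iron-binding secretory protein found in a complex with Eppin on sperm. Ltf was at 16.4 and 11.7 FPKM after sham surgery and at 0, as listed, in both hemicastrated testes (limma adjusted p = 0.000171). It passed the filter only through its controls, so the filter fixed its direction. Clu (clusterin), another Eppin partner, was at 306 and 299.7 FPKM against 318 and 278 FPKM. Acrbp, which binds the acrosin precursor, was at 254 and 217 FPKM against 221 and 240.3 FPKM. Epcam, an adhesion protein whose cleavage by matriptase the Spint proteins restrain, was at 12.02 and 11.8 FPKM against 9.51 and 7.44 FPKM and was not called (limma adjusted p = 0.307). Grn, which encodes progranulin, a growth factor that Slpi shields from elastase, was at 8.98 and 6.43 FPKM against 6.01 and 5.79 FPKM. The membrane proteases themselves, and Hgfac, the hepatocyte growth factor activator, were under the filter. Prss8 (prostasin) was at 1.05 and 1.34 FPKM after sham surgery and at 0.0864 and 0.0377 FPKM after hemicastration, and St14 (matriptase) was at 0.654 and 0.797 FPKM, listed at 0 in hemicastrated 1 and at 0.0526 FPKM in hemicastrated 2. Hgfac overlapped, at 0.630 and 0.651 FPKM against 0.190 and 0.922 FPKM, as did Hpn (hepsin), at 0.232 and 0.119 FPKM against 0.849 and 0.115 FPKM. Tmprss13 was higher without overlap, at 0.267 and 0.167 FPKM against 0.310 and 0.289 FPKM, and Tmprss2 lower, at 0.278 and 0.384 FPKM against 0.201 and 0.230 FPKM. These proteases under the filter were named after their values were seen, and at such levels no direction is drawn.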

How the data were processed

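Poly(A) RNA of the right testis of 4 KM mice, 2 hemicastrated and 2 sham-operated, was sequenced as paired reads, per the labels' protocols, which give the molecule field as genomic DNA although RNA was extracted. The deposited values are the authors' FPKM, 1 per gene in each library. TopHat2 2.0.11, Cufflinks 2.2.1 and GRCm38 are named, with no roles, per the submitters' processing notes. The annotation behind the values was not given in the sources used here. FPKM carry no counts, so depth is unknown and no counting interval is given. Nothing in the labels says more about separate litters or cages, so p-values measure the spread between these libraries.

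Symbols and positions came from GENCODE M21 (GRCm38), which named 21806 of 22073 identifiers. Groups came from the labels. Genes averaging 1 FPKM or more were tested by limma 3.58.1 (R 4.3.3) on log2(FPKM + 1), with a variance trend and no covariate, two-sided, Benjamini-Hochberg adjusted over all tested genes, and called under 0.05. The fit was first checked on simulated data. Alternatives were a pseudocount of 0.1, no filter, a mean of at least 5 FPKM, quantile normalization, robust hyperparameters, a replicate block and leaving out each library. Sequence shared between genes was counted as 50-base words of GENCODE transcripts, and promoters came from RefSeq (GRCm38.p6). The inhibitor genes, gene lists and motifs were chosen with earlier results of these data known. All tested inhibitor genes are named, and of the others those with a library at 0.5 FPKM or more; further names are Spink6, Spink7, Spink12, Spink13, Wfdc18 and Spint4. Of the partner list, called genes and those averaging 5 FPKM or more are named. Of the marker lists, the leading genes, those at 0, and Rnase9, Rnase10, Cst11 and Cnn1 are named.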

Additional observations from a re-analysis of the deposited data

How the results depend on the processing

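The count of inhibitor genes that fell was 13 with all libraries and 10 to 13 over the alternatives, with 10 of 19 tested under the 5 FPKM minimum, and each gene called under an alternative was among the 13. The count that rose was 0 throughout. Spink5 alone among the 13 lost its call, in 3 alternatives. Of the genes not called, the sign of the log2 fold change turned without hemicastrated 1 for Wfdc1 (-0.088, with 0.27 as the highest value when 1 library was left out), Wfdc3 (-0.0507, highest 0.0914), Spint5 (0.26, lowest -0.77) and Spink4 (-0.11), and without control 1 for Spink4 (-0.16, highest 0.40). Over all genes, 135 fell, 63 under the 5 FPKM minimum, where fewer genes were tested, and 78 to 156 when 1 library was left out (78 without control 2). Over all genes 12 rose, 3 with no filter, 7 under the 5 FPKM minimum, and 0 to 26 when 1 library was left out (0 without control 2, though 369 had an unadjusted limma p under 0.05). Of the partner list, 1 gene was called, 3 with no filter and 1 to 2 when 1 library was left out (2 without hemicastrated 1). The cause of these shifts was not tested beyond the numbers of genes and libraries given. With the replicate number as a replicate block, 13 inhibitor genes and 167 genes in all fell, and 30 genes rose. Same-numbered libraries deviated together with a correlation of 0.014 across genes. This value covers all tested genes at once, so it cannot show whether a smaller set of genes deviated together. Without read counts, differences among genes near 0 FPKM could not be resolved.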
